A study of Mus musculus with 7 samples.

Results

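A single heavy chain variable (VH) segment of the mouse Igh locus is described here, the VH2-family segment 617 kb upstream of VH81X. Its members were the junctions on chromosome 12 that lay within 100 bp of position 115453076 and read from the bait into the coding side of the segment. They came to 2577 of the 95203 V junctions of the series, or 2.71%, and the segment was 1 of 158 V segments. It was chosen by its share of V junctions in the WT libraries, which was among the highest, so its WT shares and ranks are a description and no support for anything.

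The study read joins in DNA of pro-B cells of bone marrow from a bait at the JH4 coding end, by high-throughput genome-wide translocation sequencing (HTGTS). Its design text asks how the use of VH segments differs between genotypes. The 7 libraries were 3 of WT and 4 of VH81X-CBEscr/scr, called the mutant here, all from mice of the 129SVE background aged 4 to 6 weeks and all sorted as B220+CD43highIgM-. CBE stands for a CTCF-binding element, and the genotype name is read here as a scrambled element at VH81X on both alleles. No transcript was measured, so the sorted cell type was not checked against markers, and the labels do not say whether libraries came from separate mice.

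Heavy chain genes are assembled in pro-B cells by the RAG recombinase, which first joins a D segment to a JH segment and then a VH segment to the DJ join. RAG cuts between the coding end of a segment and its recombination signal sequence, made of a heptamer, a spacer and a nonamer. The cut leaves a hairpin on the coding end, which is opened, trimmed and filled with added bases before joining. Many proximal VH segments carry a CTCF-binding element just beyond the signal sequence, and CTCF is a DNA-binding protein that stops the chromatin loops along which RAG scans.

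The sequences of the segment show what is joined and what lies beside it. The first line is the last 250 bases of the coding side, on the coding strand, with capitals from the codon of the conserved cysteine to the coding end (chr12:115453076-115453325, minus strand, in the files' reference, which the processing notes call mm9). The second line is the 100 bases that follow it (chr12:115452976-115453075), with capitals for the heptamer, the nonamer and a match to the CTCF core letters, which are CC, any 3 bases, AG, any 2 bases and GGC.
Coding side: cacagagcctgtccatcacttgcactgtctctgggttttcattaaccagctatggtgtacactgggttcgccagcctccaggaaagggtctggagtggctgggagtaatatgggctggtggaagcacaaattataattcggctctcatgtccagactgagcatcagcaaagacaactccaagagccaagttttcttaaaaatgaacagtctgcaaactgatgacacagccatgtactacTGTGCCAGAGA
Signal side: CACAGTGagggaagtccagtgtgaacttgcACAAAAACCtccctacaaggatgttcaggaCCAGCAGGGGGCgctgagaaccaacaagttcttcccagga

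Both stretches were rebuilt from the reads. At 250 of 250 coding positions most reads carried the reference base, with 707 to 2577 reads a position and at least 95.2% of them with the same base. The signal side came from the 8 lines at the segment that read in the opposite orientation. The prey bases of 2576 of the 2577 junctions (99.96%) matched this segment better than any other V segment, against 93.2% of the junctions of other V segments.

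The label VH2 was checked by sequence. The segment was 88.8% to 94.0% identical to 15 other V segments, VH2-2, VH2-3 and VH2-4 among them, and no V segment outside that group passed 80%. It was the family member farthest from VH81X. No gene name of the reference table was given to it, because the nearest VH2 name lay 316 kb from the place that spacing from VH81X predicts, and that table is of another assembly.

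Signal sequences were read with a spacer of 23 bases in every segment. A nonamer after a spacer of another length was thus scored out of place, and its score can be too low. The signal sequence of the segment matched the consensus heptamer CACAGTG and nonamer ACAAAAACC at 16 of 16 bases. Only segments with CACAGTG or CACAATG next to the coding end were scored, so segments with other heptamers are left out of the comparison. Of the 48 V segments with such a heptamer and the whole signal sequence read, 2 reached 16 matching bases. The other was V_115888313, and the median was 14. The segment is set here beside VH81X, whose element is altered, and the first 2 members of its family upstream, VH2-2 and VH2-3. Capitals mark heptamer and nonamer.
The segment: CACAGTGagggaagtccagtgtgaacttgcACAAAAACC
VH2-2: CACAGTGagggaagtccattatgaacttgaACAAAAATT
VH2-3: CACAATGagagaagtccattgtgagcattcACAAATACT
VH81X: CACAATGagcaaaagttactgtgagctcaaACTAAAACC

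VH2-2 had the consensus heptamer and a nonamer that departed from the consensus at its end, whereas VH2-3 and VH81X departed in both parts. A consensus heptamer alone was common, in 40 of the 48 segments, which were kept only if they had CACAGTG or CACAATG.

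The CTCF core letters began 60 bases after the start of the heptamer in the segment. With 120 bases after each heptamer searched on both strands, 21 of 54 V segments (38.9%) held the letters on the strand of the signal sequence and 0 on the other strand. All matches began 58 to 61 bases after the heptamer start. The most distant lay 1083 kb from VH81X, with matches in 21 of 29 windows up to there and none in the 25 windows beyond. All 8 family members whose window was read held a match. The matches of the segment and of VH81X shared the same core, as the next lines show with the core in capitals; a match of letters is a description and not a measured binding site.
The segment, chr12:115452996-115453023: gttcaggaCCAGCAGGGGGCgctgagaa
VH81X, chr12:114836299-114836326: atccaggaCCAGCAGGGGGCgcggagag

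The segment made up a few percent of V junctions in every library, with WT replicate 2 lowest. WT replicates 1, 2 and 3 held 507, 173 and 375 junctions of the segment, and mutant replicates 1 to 4 held 325, 311, 396 and 490. As a share of V junctions these were 3.005%, 1.58% and 2.52% in WT and 2.70%, 2.66%, 3.04% and 3.12% in the mutant. The lowest value, in WT replicate 2, had a Wilson 95% interval of 1.36% to 1.83%, below the intervals of the other 6 libraries. On lines not marked duplicate its interval of 1.25% to 2.20% overlapped those of the other 6, and with each distinct join counted once its interval of 1.38% to 2.24% overlapped 3 of them. The shares of WT replicate 1 lay among those of the mutant, so the genotypes overlapped. Over the 129 V segments tested, the genotypes did not overlap for 7.75%, and for 10.1% with VH81X left out. Intervals treat each line as independent and leave out the spread between libraries. PCR reads with no molecular identifier may repeat 1 molecule, so the intervals on lines can be too narrow even for counting error.

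**Figure D1:**
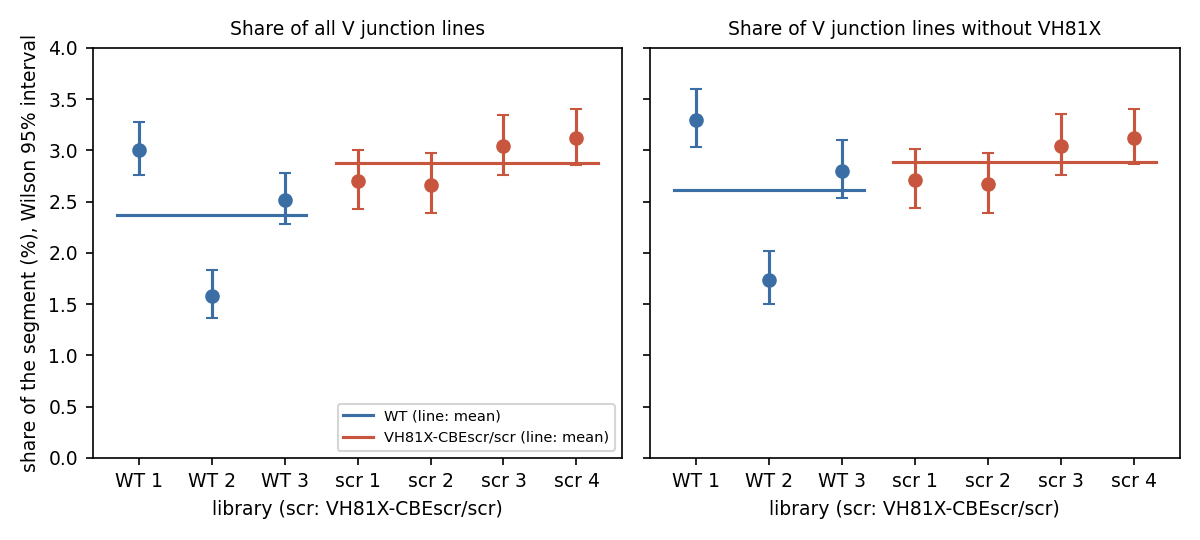
Share of the segment (%, y axis) in each of the 7 libraries (x axis), of all V junction lines on the left and with VH81X left out on the right; points are libraries, bars are Wilson 95% intervals and lines are genotype means. WT replicate 2 sits lowest in both panels, at 1.58% and 1.74%, and the other WT libraries lie among or above the mutant libraries once VH81X is left out.

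The mean share was 2.37% ± 0.725 in WT (SD, n = 3) and 2.88% ± 0.231 in the mutant (SD, n = 4). By limma-voom across these 129 V segments, the log2 fold change of the mutant over WT was 0.30 (SE 0.160, 95% interval -0.0099 to 0.62, adjusted p = 0.392), so a difference was not called. In that fit 4.65% of the tested segments were called. The segment was chosen by the WT shares that form 1 side of this comparison. That choice can bias its genotype differences in share downward and affects their p-values, here and below. Without WT replicate 2 the log2 fold change was 0.065, and without WT replicate 1 it was 0.50 (limma-voom adjusted p = 0.0887). It was 0.11 on lines not marked duplicate and 0.080 with each distinct join counted once (limma-voom adjusted p = 0.963 and 0.977). WT replicate 2 also held the fewest distinct V joins, 3694 against 5902 to 11648 in the other libraries, and the part of this in its low share was not tested. Each sequencing run named in the reads held libraries of 1 genotype, so run and genotype cannot be told apart, although WT replicates 2 and 3 came from the same run.

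VH81X itself fell from 9.42% ± 0.622 of V junctions in WT to 0.181% ± 0.140 in the mutant (n = 3 and 4). Such a loss raises the summed share of the other segments, but not the share of each. With VH81X in the total, the median log2 fold change of all tested segments was -0.04, so a rise was not general. With VH81X left out of the total, the segment made up 3.30%, 1.74% and 2.80% in WT and 2.71%, 2.67%, 3.04% and 3.12% in the mutant. The means were 2.61% ± 0.798 and 2.88% ± 0.230, and WT replicate 1 was now the highest library. The log2 fold change was 0.16 (SE 0.158, 95% interval -0.146 to 0.475, limma-voom adjusted p = 0.587), in a fit that called 2.33% of the segments. Leaving VH81X out moved the median log2 fold change of all tested segments from -0.04 to -0.18, so the segment lay above that median by a like amount in both. Without WT replicate 2 the log2 fold change was -0.077, and with each distinct join counted once it was -0.041. A two-sided exact permutation test of the log2 shares gave p = 0.143 with VH81X and p = 0.629 without it, where 3 libraries against 4 allow 0.0286 at the lowest.

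Within its own family the segment was among the 4 most used members, with VH2-2 and VH2-3 near VH81X and V_115364195 next to it, and the 12 members between these were used less. VH2-2, the first VH2 segment upstream of VH81X, made up 5.57% ± 0.404 of V junctions in WT and 11.6% ± 1.82 in the mutant (SD, n = 3 and 4). VH2-3 made up 2.13% ± 0.174 and 3.26% ± 0.270. The next 12 members, from VH2-4 at 74.8 kb to V_115324071 at 488 kb, had mean WT shares of 0.0187% to 0.448%. V_115364195, at 528 kb, then reached 1.47% ± 0.339 in WT and 1.75% ± 0.162 in the mutant, and the segment at 617 kb was higher than it in each of the 7 libraries. The order of the WT means in the family was thus VH2-2, the segment, VH2-3 and V_115364195, and the WT shares of the segment overlapped those of VH2-3 and V_115364195.

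**Figure D2:**
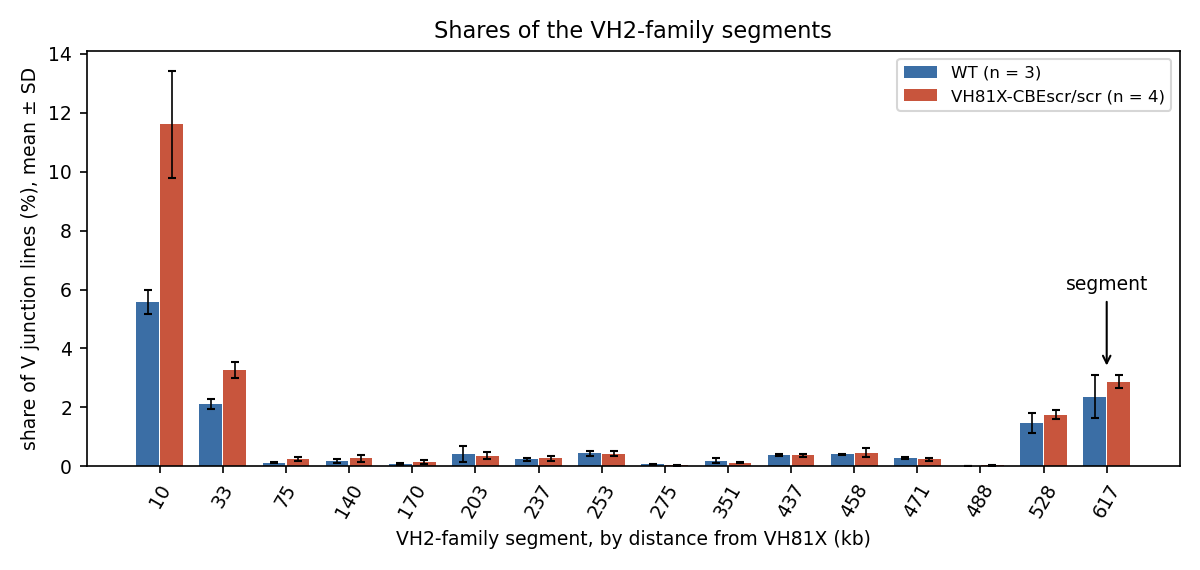
Share of V junctions (%, y axis, mean ± SD) of the 16 VH2-family segments, ordered by their distance from VH81X in kb (x axis), with WT in blue (n = 3) and the mutant in red (n = 4). High bars stand at both ends of the row, VH2-2 and VH2-3 near VH81X and V_115364195 and the segment at 528 and 617 kb, and the bars of VH2-2 differ most between genotypes.

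Of the 14 other family members tested by limma-voom with all V junctions as the total, 2 were called, VH2-2 with a log2 fold change of 1.04 (SE 0.140, adjusted p = 1.6e-11) and VH2-3 with 0.61 (SE 0.160, adjusted p = 0.00468), both higher in the mutant. Over all tested segments 3.88% were called higher, so the count in the family was above the background, and both calls were within 33 kb of VH81X. Calls near VH81X were not particular to the family. VH5-4, of another family and at 19.0 kb between VH2-2 and VH2-3, was also called higher (0.65, limma-voom adjusted p = 0.000843). So was V_114961492, also of another family (0.60, adjusted p = 0.0278). V_115364195 had a log2 fold change of 0.25 (SE 0.178, adjusted p = 0.696). With VH81X out of the total, VH2-2 was still called and VH2-3 was not (adjusted p = 0.0747), nor was VH2-3 called without WT replicate 3 (0.0501). On lines not marked duplicate the log2 fold change of VH2-2 was 0.57 (limma-voom adjusted p = 0.000351). The segment made up 16.2% ± 3.47 of all VH2-family junctions in WT and 12.8% ± 1.64 in the mutant (SD, n = 3 and 4). Among family members over 100 kb from VH81X its part was 35.5% ± 4.62 and 38.9% ± 1.36, with 30.1% in WT replicate 2 and 36.8% to 39.7% in the other 6 libraries.

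The segments on either side of it belong to other families, at 59.9% to 68.4% identity. The nearest on the JH side, V_115427676 at 25.4 kb, made up 1.90% ± 0.259 of V junctions in WT and 1.75% ± 0.108 in the mutant. The nearest on the far side, V_115470146 at 17.1 kb, made up 2.08% ± 0.179 and 1.95% ± 0.192. In WT replicate 2 the share of the segment was below that of both neighbours, and in the other 6 libraries it was above both. The next neighbours out were used less, V_115402886 and V_115376250 at 0.653% and 0.147% in WT and V_115501873 and V_115523700 at 0.571% and 0.866%. With all V junctions as the total, none of the 6 neighbours was called between genotypes by limma-voom. Their log2 fold changes were -0.13 to 0.16, with no unadjusted p under 0.462. With VH81X left out, none was called either, at -0.27 to 0.015, where the median of all tested segments was -0.18. V_115427676 was then at -0.24 and V_115470146 at -0.23 (limma-voom adjusted p = 0.461 for both).

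Among the 41 other V segments with a mean of at least 100 junctions, the log2 shares most like those of the segment over the 7 libraries were those of V_115364195 (Pearson's r = 0.90), V_115608445 (r = 0.88) and V_115523700 (r = 0.76). The 7 points share the same libraries and totals, and all 3 segments had their lowest WT share in WT replicate 2, so these values describe the libraries and carry no test. Of the 3, limma-voom called V_115608445 higher in the mutant by 0.61 on the log2 scale (SE 0.188, adjusted p = 0.0278) with all V junctions as the total, but did not call it with VH81X left out (0.47, adjusted p = 0.146), with each distinct join counted once (0.25, adjusted p = 0.614) or without WT replicate 2 (0.38, adjusted p = 0.310).

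Most joins of the segment began at or close to its coding end. The end was intact, with 0 bases lost, in 1116 of 2577 lines (43.3%), 1 base was lost in 525 lines (20.4%) and 2 bases in 245 lines (9.51%), and these were the 3 most frequent positions. A further 18.2% had lost 3 to 5 bases, 2.83% had lost 6 to 10 and 0.660% more than 10. In 5.16% the read matched 1 or more bases of the heptamer, which can also come from an added base that happens to match. The outermost junctions lay 5 bases inside the heptamer and 24 bases inside the coding part, and the nearest V junction outside the window was 3640 bp away.

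**Figure D3:**
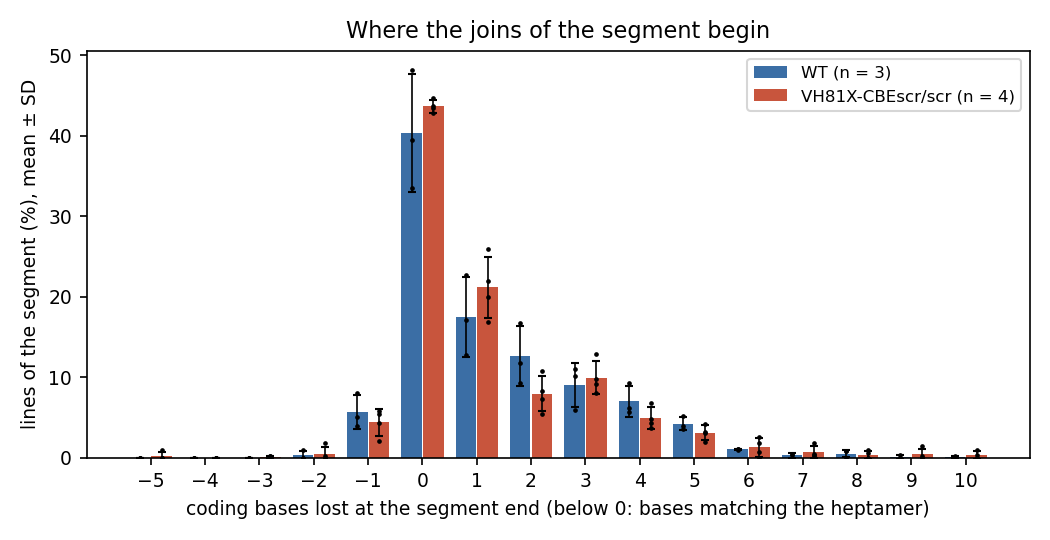
Share of the lines of the segment (%, y axis) by the number of coding bases lost at its end (x axis, values below 0 are bases that match the heptamer), as mean ± SD over the libraries of each genotype with 1 black point a library. The bar at 0 bases lost is the highest in both genotypes, at 40.4% in WT and 43.6% in the mutant.

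Intact ends made up 48.1%, 33.5% and 39.5% of the lines in WT replicates 1 to 3 and 43.4%, 42.8%, 43.7% and 44.7% in mutant replicates 1 to 4. The mutant libraries lay within the WT range, and the means of 40.4% ± 7.34 and 43.6% ± 0.805 gave a two-sided exact permutation p of 0.429 (n = 3 and 4). WT replicate 2 was again the lowest.

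The base next to an intact end was most often T, the base that an opened hairpin can leave. The last coding base of the segment is an A, and a hairpin opened off its tip adds the complement, T, as a palindromic base. T followed the intact end in 783 of 1116 lines (70.2%), and T followed by C, which would complete a palindrome of 2 bases, in 32.9%. T can also be an added base or the first base of a D segment. The body of DFL16.1 begins with T, and other D bodies begin with TC. The source of these bases was not tested. T followed in 76.6%, 87.9% and 71.6% of such lines in WT replicates 1 to 3 and in 66.7%, 59.4%, 66.5% and 68.9% in mutant replicates 1 to 4. The genotypes did not overlap, nor with each distinct join counted once, at 72.4% to 84.6% in WT and 57.6% to 66.4% in the mutant. This was singled out after the values were seen. WT replicate 2, the highest, rested on 26 such distinct joins. The base was read at this segment only, so whether other V segments differ in the same way is not known. At ends that had lost 3 bases, T came next in 38.1% of 236 lines, and at ends that had lost 5 bases in 27.0% of 89. These shares were not tested, and they leave out the base that the aligner would have counted as germline: C at intact ends and A at the other 2.

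The length of the bases between V and JH4 was near that of other V segments. The median number of bases between the 2 ends was 17, 18 and 16 in WT and 17, 16, 17 and 18 in the mutant, against 17 for the other V segments in every library. The mean difference was 0 bases (SD 0.816 over 7 libraries, two-sided exact sign-flip permutation p = 1), and the mean was 17.0 in both genotypes (exact permutation p = 1). No line had more than 30 bases between bait and V, so longer inserts are not in these values. Only 0.0388% of the lines of the segment had no base between the ends, against 0.411% of the lines of other V segments.

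A D segment could be assigned by at least 8 matching bases in 1699 of the 2577 lines (65.9%), close to the 66.6% of other V segments. Of these, bases shared by several D segments other than DFL16.1, DQ52 and the D at 16.5 kb made up 26.2% ± 3.07 (SD, n = 7). Lines whose best match was shared with DFL16.1, DQ52 or the D at 16.5 kb counted as unassigned. The D segments 29.3 and 38.95 kb from JH4, whose bodies are identical, could be assigned only to the shared bases. The D segment most often assigned was DFL16.1, the D farthest from JH, with this body on the coding strand, all of it in capitals because any 8 bases of it counted unless another D segment shares them.
DFL16.1: TTTATTACTACGGTAGTAGCTACC

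DFL16.1 made up 22.8%, 27.5% and 24.2% of assigned D in WT replicates 1 to 3 and 22.0%, 19.0%, 20.5% and 30.6% in mutant replicates 1 to 4. The genotypes overlapped, with 24.9% ± 2.39 and 23.01% ± 5.21 (exact permutation p = 0.571, adjusted p = 0.80 over 4 measures). The mean over the 7 libraries was 23.8% against 20.9% for other V segments, a difference of 2.91 percentage points (SD 5.08, higher in 6 of 7 libraries) that did not pass the two-sided exact sign-flip permutation test (p = 0.234, adjusted p = 0.469). Against the other VH2-family segments, most of whose joins are those of VH2-2 and VH2-3, it was 7.40 points higher, in 7 of 7 libraries (exact p = 0.0156, adjusted p = 0.0312). Against other V segments over 100 kb from VH81X, an alternative added after the data were seen, it was 0.511 points higher, in 2 of 7 libraries (exact p = 0.922).

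**Figure D4:**
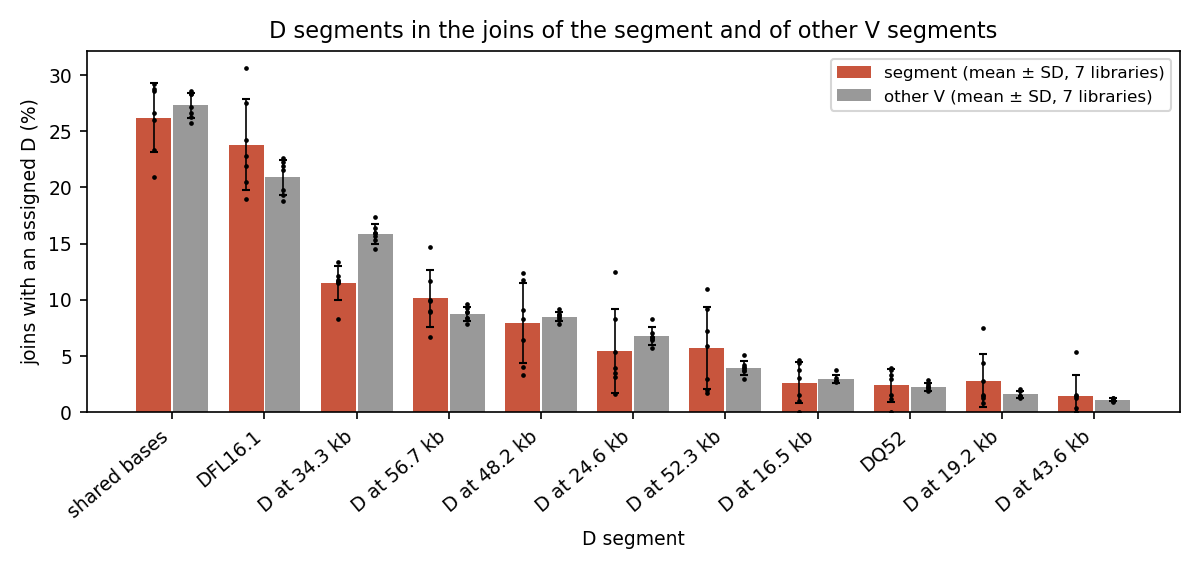
Share of joins with an assigned D (%, y axis) for each D segment (x axis, by name or by its distance from the JH4 end in kb, with bases shared by several D segments first), for the segment in red and for other V segments in grey, as mean ± SD over 7 libraries with 1 black point a library. DFL16.1 is the highest single D in both, at 23.8% and 20.9%, and for the D at 34.3 kb the points of the segment lie below all grey points.

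Among D segments with bases of their own, the one 34.3 kb from JH4 was second, at 11.5% ± 1.54 of assigned D in the segment and 15.9% ± 0.882 in other V segments (SD, n = 7). It was lower in the segment in 7 of 7 libraries, at 8.33% to 13.4% against 14.5% to 17.3%, and it was singled out after these values were seen. Against V segments over 100 kb from VH81X, with 11.9% to 14.1%, the ranges overlapped. DQ52, the D segment nearest to JH, made up 2.39% ± 1.49.

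Most joins of the segment were in frame, with the cysteine codon of V and the tryptophan codon of JH4 in the same reading frame. The frame could be read in 2523 lines, and 1727 of them (68.5%) were in frame, with a Wilson 95% interval of 66.6% to 70.2%. That interval pools the lines of all libraries as if independent, repeated lines included. It leaves out the spread between libraries and is too narrow. WT replicates 1 to 3 had 70.2%, 82.1% and 67.8%, and mutant replicates 1 to 4 had 65.2%, 66.6%, 61.4% and 71.6%. All 7 lay above the 33.3% that 3 equally frequent frames give. WT replicate 2 was the highest, and the other WT libraries lay within the range of the mutant. The means were 73.3% ± 7.68 and 66.2% ± 4.19, a difference of -7.16 percentage points (two-sided exact permutation p = 0.171, adjusted p = 0.686), and of -2.79 without WT replicate 2.

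The other V segments as a whole had 57.9%, 53.4% and 54.5% of joins in frame in WT and 50.04%, 56.2%, 57.8% and 59.1% in the mutant. The segment was higher in 7 of 7 libraries, by 13.7 points on average (SD 7.56). The two-sided exact sign-flip permutation p was 0.0156, the smallest that 7 libraries allow. Adjusted over 4 measures it was 0.0625, the lowest value that 1 measure alone can then reach, so the adjusted p cannot tell a pass from a failure. The difference was 8.23 points, in 6 of 7 libraries, against segments over 100 kb from VH81X, an alternative added after the data were seen (exact p = 0.0312, adjusted p = 0.125). Against the median of V segments it was 6.40 points (exact test, adjusted p = 0.141).

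Among single segments, its in-frame share lay among those of its neighbours. It ranked 17 of the 71 V segments with at least 350 lines of known frame, where the median of the others was 64.6% and 49 of the 71 lay between 60% and 72%. Its neighbours V_115427676 and V_115470146 had 68.7% and 64.7%, and V_115364195 had 67.9%. The 5 segments within 100 kb of VH81X had 30.9% to 41.2%, with VH2-2 at 38.9%, VH2-3 at 37.9% and VH81X at 30.9%. Against the rest of its family, which these proximal members dominate, the segment was 24.7 points higher, in 7 of 7 libraries (exact sign-flip p = 0.0156, adjusted p = 0.0312, which could pass because DFL16.1 was also at the smallest p).

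**Figure D5:**
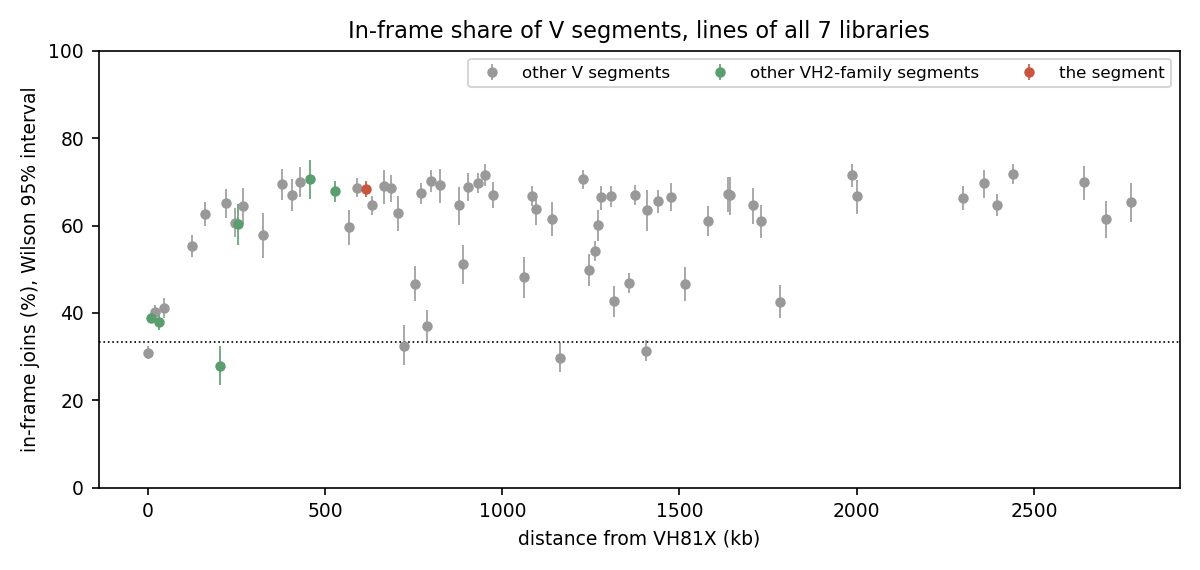
In-frame share of joins (%, y axis, with Wilson 95% intervals) of the 71 V segments with at least 350 lines of known frame, over all 7 libraries, against distance from VH81X in kb (x axis); the dotted line marks 33.3%. The intervals pool lines as if independent, repeated lines included, and leave out the spread between libraries. The segment, in red at 617 kb, lies at 68.5% among its neighbours, and the 5 segments within 100 kb of VH81X lie at 30.9% to 41.2%.

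In-frame joins of the segment had a median of 13 codons between the cysteine and the tryptophan, with 10 and 16 as the 10th and 90th percentiles, and the median of other V segments was also 13. A stop codon stood in 9.55% of the in-frame lines. Counted as in frame and without a stop codon, the segment still exceeded the other V segments in 7 of 7 libraries, by 14.3 points (exact sign-flip p = 0.0156, again the smallest possible).

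The joins of the segment were many and mostly private to a library. Counting each V position, JH4 position and intervening sequence once gave 354, 65 and 242 distinct joins in WT and 152, 145, 211 and 233 in the mutant. Of 1401 distinct joins, 1 was seen in more than 1 library. Lines per distinct join were 1.43, 2.66 and 1.55 in WT and 2.14, 2.14, 1.88 and 2.10 in the mutant, so WT replicate 2 repeated its joins most. The mean was 0.057 above that of other V segments in the same libraries (SD 0.188, exact sign-flip p = 0.469), and the genotypes differed by 0.185 (exact permutation p = 0.60). Repeated lines from cells of 1 clone and from amplification of 1 molecule cannot be told apart.

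The most repeated join took 0.986% to 5.20% of the lines of the segment in a library, the highest being 9 lines in WT replicate 2. Without its most repeated join, the share of the segment in that library was 1.497% and its in-frame share 81.05%. The most repeated joins of 3 libraries are printed on the coding strand, from the cysteine codon to the tryptophan codon of JH4, with the bases between V and JH4 in capitals, since they show an intact end, a trimmed end and a frameshift.
WT replicate 1: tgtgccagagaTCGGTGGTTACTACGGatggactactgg
WT replicate 2: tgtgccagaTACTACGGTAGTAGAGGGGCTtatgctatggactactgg
Mutant replicate 2: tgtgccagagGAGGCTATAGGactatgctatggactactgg

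The first kept the whole coding end, followed by TC, the bases that a palindrome would leave, and was read 5 times, as were 2 other joins of that library. The second had lost 2 bases, carried 21 bases that include part of DFL16.1, and was in frame. The third had lost 1 base, carried 11 bases and was out of frame, at 8 lines.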

How the data were processed

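HTGTS junctions of 7 libraries were analysed (3 WT, 4 VH81X-CBEscr/scr). Per the labels' fields, the bait was the JH4 coding end. The submitters' processing notes name Bowtie2 and mm9; versions, filters and the rule for marking duplicates are not given in the sources used here. The deposited tables hold 1 junction per line with other values than counts (position, strand, alignment and sequence, per the file headers), so counts are lines counted here, duplicates included (71.8% to 84.8% of a library). Libraries held 31986 to 46915 lines and 10961 to 16874 V lines (strand 1, positions 114830800 to 117838107 on chromosome 12), where 3 counts allow a share of 0.0178% to 0.0274%.

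Lines up to 300 bp apart formed a segment, with at least 10 lines. V segments were named by position, and those within 100 kb of VH81X by spacing in a GRCm38.p6 gene table. Bases of the segments were rebuilt from the reads, since a genome was not used here. limma-voom (limma 3.58.1, R 4.3.3) tested 129 segments with a mean of at least 10 lines in either genotype, with V lines as library size and Benjamini-Hochberg adjustment at 0.05; frame, insert length, D use and repeats were compared by exact permutation tests (Python 3.11.15), adjusted over 4 measures. On simulated counts with the real means, the limma-voom step on 158 segments recovered 93.5% of 2-fold and 100% of 4-fold changes. Smaller changes, such as the log2 fold change of 0.30 of the segment, were not simulated, and a rate of false calls is not given here. The simulation used a fixed dispersion that was not estimated from these libraries. Changes were placed only in segments above a floor of expected lines, so these rates do not cover sparse or more variable segments.

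Named features were fixed by rule: the segment, 3 V segments on each side, the segments at least 80% identical, VH81X, the 3 segments most alike in share, the 3 most frequent positions, the most repeated joins and the D segments. The segment and these rules were chosen with earlier results of these data known. P-values measure the spread between these libraries, which may be technical. Replicate numbers did not pair the libraries.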

Additional observations from a re-analysis of the deposited data

Results flagged for a closer look

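In VH81X-CBEscr/scr replicate 3, lines per distinct join of the segment were 1.88, apart from the 2.10 to 2.14 of the other 3 libraries of that genotype. In the same library the segment made up 36.8% of the junctions of VH2-family members over 100 kb from VH81X, against 39.4% to 39.7% in the other 3. Of the 15 groups of values examined, such a gap arises by chance in about 1 in 20. Lines of opposite orientation, which the shares do not use, numbered 8 at the segment, in 4 of 7 libraries and at most 3 in any library.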

How the results depend on the processing

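The 8 tested comparisons with a direction were recomputed under 104 alternatives, and 95 kept the direction and the side of the threshold. Both comparisons of length were 0 bases as reported, so they have no direction; without 1 library they ranged from -0.167 to 0.167 against other V segments and from -0.5 to 0.5 between genotypes, and neither was called. None of the 10 was called as reported, and 3 were called under an alternative: the in-frame share against other V segments with distinct joins (13.3 points, exact adjusted p = 0.0469 over 3 measures) and against the family (24.7 points), and DFL16.1 against the family (7.40 points). The direction turned in 6. With VH81X left out, the log2 fold change of the share was -0.041 with distinct joins and -0.077 without WT replicate 2. The genotype difference in DFL16.1 was 0.301 points with distinct joins. Lines per distinct join, against other V segments, differed by -0.013 with best matches only and by -0.023 against the family, and between genotypes by -0.040 without WT replicate 1. The cause of these turns was not tested.

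Leaving out 1 library at a time gave log2 fold changes of 0.065 to 0.50 with VH81X and -0.077 to 0.36 without it. The in-frame difference from other V segments ranged from 11.2 to 15.4 points and that between genotypes from -9.96 to -2.79. With DFL16.1 these ranges were 1.59 to 4.00 and -4.38 to -0.513, and with lines per distinct join 0.026 to 0.118 and -0.040 to 0.575. With 1 library left out, the exact tests between genotypes cannot pass 0.05.

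With the replicate number as a block, the log2 fold change was 0.26 (limma-voom adjusted p = 0.748) with VH81X and 0.12 (0.721) without it; deviations of same-numbered libraries correlated at -0.28, -0.0073 and 0.12, so the numbers were not taken as pairs. The block called 2 of 129 segments instead of 6 with VH81X and 1 instead of 3 without it. With VH81X left out, VH2-2 was then not called (adjusted p = 0.0524), and VH2-3 was called in neither. With sequencing run as a random block, added after the data were seen, the limma-voom values were 0.33 (adjusted p = 0.171) and 0.19 (0.414). The estimated correlation within runs was negative, at -0.18 with VH81X and -0.19 without it. With VH81X the SE was 0.144, against 0.160 with no block, so the run block is not a stricter control for run. With VH81X left out, median-of-ratios size factors gave 0.33 for the segment and called 7 segments, best matches only called 7, the run block 9, and leaving out a WT library 5 or 6. Adjusted p over the alternatives ranged from 0.0887 to 0.984 with VH81X and from 0.326 to 0.993 without it.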
